A study of Mus musculus with 6 samples.

Results

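Genes of the cytosolic ribosomal proteins were followed in C17.2 cells, an immortalised mouse neural stem cell (NSC) line, in a control group and after hypoxia/reoxygenation (H/R). Members were taken by name: every gene of the gene count table whose symbol begins with Rpl, Rplp or Rps followed by a number, or is Rpsa, apart from the Rps6k kinases. The rule found 100 of 14665 genes, 61 with a large subunit name and 39 with a small subunit name. The set was chosen by its behaviour in the H/R against control contrast of these same libraries, so its fold changes there are given as a description and no test of the set is drawn from them.

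Of the 100 members, 74 were standard subunit genes, 45 of the large and 29 of the small subunit. Rpsa and Rps27 were not analysed here. A further 6 were paralogs or extra copies of a subunit gene (Rpl7l1, Rpl22l1, Rpl36al, Rps27l, Rps3a2 and Rps3a3), and 18 carried pseudogene names with -ps. This grouping is by name. The GENCODE vM21 annotation classes Rps3a2 and Rps3a3 as processed pseudogenes, and Rpl10-ps3, Rpl9-ps6 and Rps12-ps3 as protein coding. Rps19bp1, a nucleolar protein that binds ribosomal protein S19, entered by its name alone. The row named Rpl24 has an identifier that the GENCODE vM21 annotation gives to Zbtb11, a zinc finger protein, so its values are not read as those of Rpl24.

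The cytosolic ribosome consists of a large subunit, which joins amino acids, and a small subunit, which decodes the mRNA. Each ribosomal protein is needed once or a few times per ribosome, so the genes are expressed at high and broadly similar levels in growing cells. Most of their mRNAs begin with a C followed by a run of pyrimidines, the 5′ terminal oligopyrimidine (TOP) tract, through which mTOR, LARP1 and the 4E-binding proteins control their translation and stability.

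RNA was sequenced after removal of ribosomal RNA from 3 control and 3 H/R samples, all wild type and grown in serum-containing medium. H/R samples spent 12 h at 5% oxygen and then 48 h in standard oxygen. The control group is labelled only as control. The labels do not say whether samples of a group were separate cultures. Gene counts per library were 7267809 to 8371882 in the control group and 15639751 to 16830389 in the H/R group, so depth differed between the groups as the treatment did. Levels are given as CPM, counts scaled to a common library size with TMM factors. Of 8 neural stem cell markers 5 were measured. Nestin (Nes) was at 195.7 CPM and vimentin (Vim) at 1221 CPM in the control mean. Sox2, Msi1 and Sox9 were lower, at 29.1, 9.65 and 8.28 CPM, and Prom1, Pax6 and Fabp7 had no values. Gfap, an astrocyte marker, was at 0 in every control library. The fibroblast list summed to 4478 to 6276 CPM in control and 4224 to 5427 CPM in H/R libraries, chiefly collagen genes, while Thy1 was at or near 0. The neuron list summed to 73.2 to 81.1 and 32.8 to 37.9 CPM, chiefly Map2. The part of such cells in the values below was not tested.

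After H/R, ribosomal protein mRNAs stood lower almost throughout. Of the 92 members with enough counts for the test, 81 passed as lower and 2 as higher, at a Benjamini-Hochberg adjusted p under 0.05 in edgeR's quasi-likelihood test. Over all 11104 genes tested 37.8% passed, 19.0% as lower and 18.8% as higher, and since this contrast chose the members nothing is read from the excess. The median log2 fold change of the members was -0.84, which is 0.560 of the control level, beside 0.01 over all genes. In bulk RNA, fewer cells of a type and less RNA per cell cannot be told apart. The 8 members below the filter all carried pseudogene names.

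Among the 74 standard genes, 71 passed as lower and the other 3 did not pass. In the same 71 genes every H/R library lay below every control library, which held for 24.0% of all genes tested. Over the 74 genes the log2 fold changes kept to a narrow range, from a lower quartile of -0.94 to an upper quartile of -0.72. For all genes the quartiles were -0.35 and 0.37, with a larger median SE of 0.16. For 620 other genes at or above the lower quartile of the standard genes' control CPM they were -0.63 and -0.03, with a median SE of 0.09. The SD over the 74 genes was 0.21, next to a median SE of 0.10 for a single gene. The study's cutoffs, a 2-fold difference and an unadjusted p under 0.05, were also applied to the edgeR quasi-likelihood fit used here. By them 9 of the 74 standard genes counted as lower, while 5.37% of all genes did. The study's own calls were not used.

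**Figure D1:**
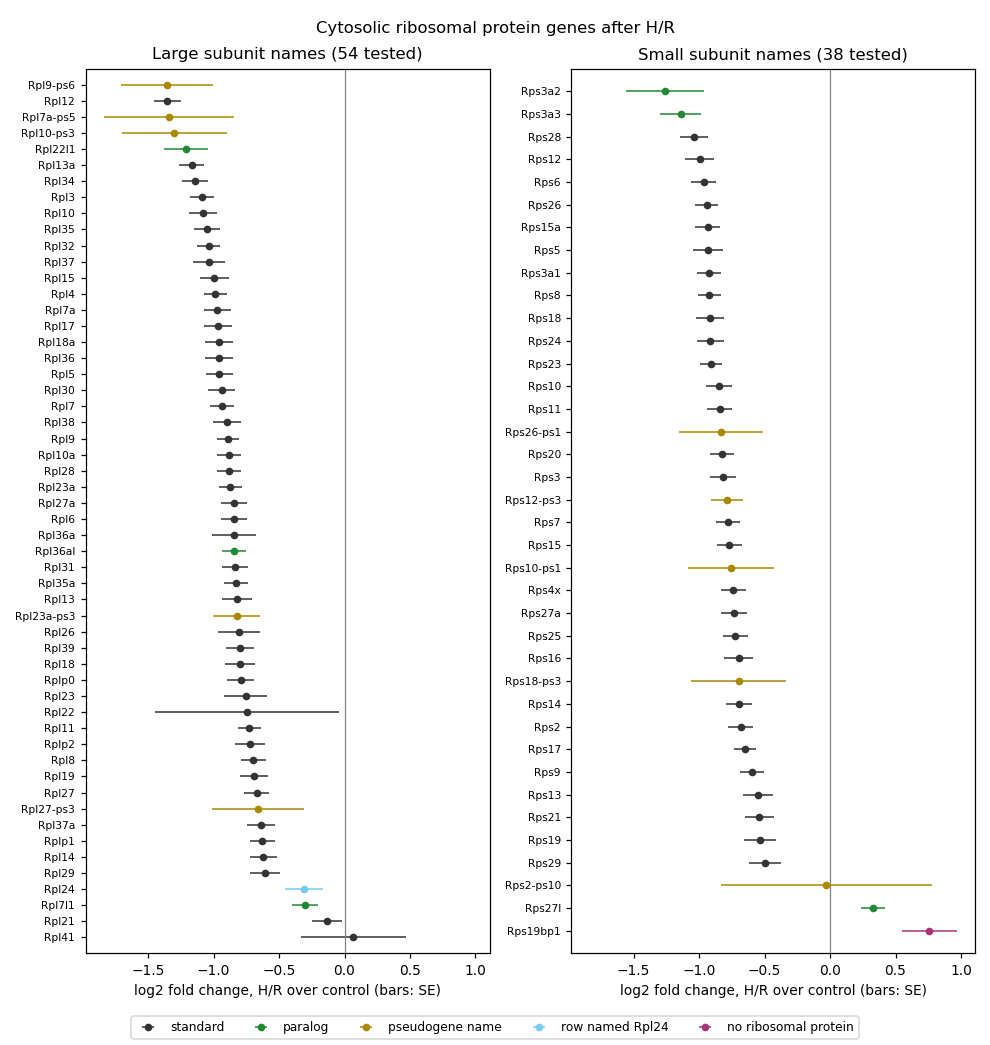
Log2 fold change (x axis, H/R over control) of each tested ribosomal protein gene, with bars for the SE, ordered from most to least negative from top to bottom. Black points are standard subunit genes, green paralogs, ochre pseudogene names, light blue the row named Rpl24 and purple Rps19bp1; nearly all sit between -1.35 and -0.50, and Rps27l and Rps19bp1 lie to the right of 0.

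Measured as a share of the library, the 74 standard genes took 3.34, 3.70 and 4.14% of all gene counts in control libraries 1 to 3 and 2.34, 2.43 and 2.32% in the H/R libraries. The groups did not overlap. All 100 members together took 3.83% ± 0.41 (SD, n = 3) in control and 2.45% ± 0.06 (SD, n = 3) after H/R. The controls were spread far more widely than the H/R libraries: 67 of the 74 genes had their highest control value in library 3, and 61 their lowest in library 1, with a median log2 difference of 0.30 between those libraries.

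Both subunits moved by nearly the same amount. For the large subunit, 42 of 45 standard genes passed as lower, with a median of -0.85. All 29 of the small subunit did, with a median of -0.82. Large subunit genes had the wider range, from -1.35 (Rpl12) to 0.07 (Rpl41), while small subunit genes ran from -1.04 (Rps28) to -0.50 (Rps29). Summed counts of the small subunit divided by those of the large were 0.662, 0.659 and 0.650 in the controls and 0.680, 0.688 and 0.695 after H/R. The ratio was thus slightly higher in every H/R library than in any control library. Counts were also averaged over genes on the log2 scale instead of summed. The difference between small and large was then 0.53 ± 0.05 (SD, n = 3) in control and 0.58 ± 0.03 (SD, n = 3) after H/R. These means differed by less than the spread between the controls. They weigh every gene alike, including Rpl22 at 3.22, 1.95 and 0.449 CPM in the controls, and the part of such rows was not tested. The median log2 CPM of the small subunit was below that of the large in every control library. It was above in H/R libraries 1 and 2, and slightly below in H/R library 3 (7.93 and 7.95).

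**Figure D2:**
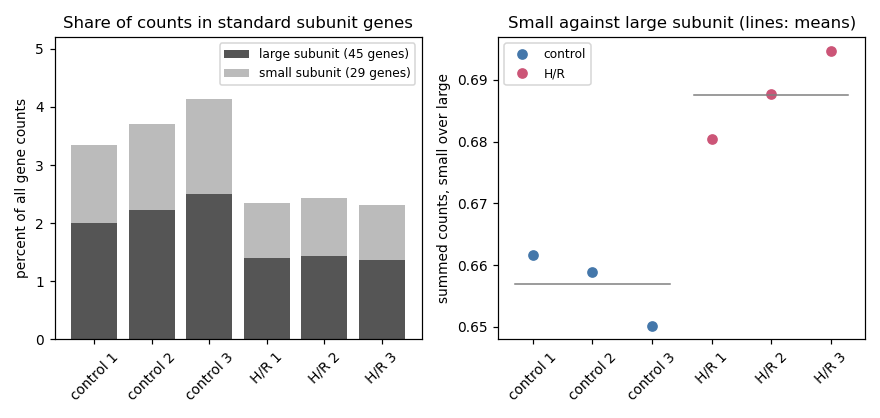
Left: percent of all gene counts (y axis from 0) held by standard large (dark) and small (light) subunit genes in each of the 6 libraries, 3.34 to 4.14% in control and 2.32 to 2.43% in H/R. Right: summed counts of the small over the large subunit per library, with a line at each group's mean (0.657 and 0.688); the y axis does not start at 0.

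Rpl12, a protein at the base of the stalk where elongation factors dock, showed the largest difference among standard genes. Its level was 872, 1087 and 1167 CPM in the controls and 383, 422 and 419.6 CPM after H/R, a log2 fold change of -1.35 ± 0.11 (SE). Rpl13a, which is also known for holding back translation of inflammatory mRNAs once released from the ribosome, stood at 493, 567 and 633 CPM and then at 249, 252 and 253 CPM (-1.17 ± 0.10). The H/R libraries of both genes lay close together and well apart from the controls.

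Rpl34 followed with 148, 165 and 173 CPM in control and 72.4, 76.8 and 71.1 CPM after H/R, a log2 fold change of -1.14 ± 0.10. Rpl3, whose long extension reaches the peptidyl transferase centre, went from 531, 591 and 654 to 268, 293 and 275 CPM (-1.09 ± 0.09). Rpl10, one of the last proteins to join the large subunit, had 971, 1129 and 1320 CPM and 532, 574 and 509 CPM (-1.08 ± 0.11). None of the 3 genes had overlapping groups.

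In the small subunit, Rps28 had the most negative value of the standard genes, with 534, 514 and 627 CPM in the controls and 270.1, 308 and 237 CPM after H/R (-1.04 ± 0.11). Rps12 had 524, 672 and 738 and 316, 310.2 and 343 CPM (-0.996 ± 0.11). Rps6, the substrate of the S6 kinases downstream of mTOR, had 872, 994 and 1133 and 494, 508 and 534 CPM (-0.97 ± 0.10). These 3 genes stood at 0.487, 0.501 and 0.512 of their control means. At the other end stood Rps29, with 197, 155 and 217 CPM in control and 135, 146 and 122 CPM after H/R (-0.50 ± 0.12), and Rps19, mutated in Diamond-Blackfan anaemia, with 207, 233 and 285 and 169, 184 and 147 CPM (-0.54 ± 0.12). For Rps19 and Rps29 the highest H/R library came close to the lowest control library without crossing it.

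The stalk of the large subunit, built on Rplp0 with pairs of Rplp1 and Rplp2, had less negative values than Rpl12 beneath it. Rplp0 was the most abundant member before length correction, at 2166, 2508 and 2934 CPM in control and 1542, 1447 and 1401 CPM after H/R (-0.79 ± 0.10). Rplp1 went from 413, 445 and 484 to 305, 303 and 260.3 CPM (-0.63 ± 0.09), and Rplp2 from 227, 249.8 and 311 to 158, 170.1 and 149.5 CPM (-0.72 ± 0.11). The difference between these genes and Rpl12 was not tested.

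Rpl5 and Rpl11, which bind the 5S ribosomal RNA and, when free, the p53 regulator Mdm2, differed a little in size of change. Rpl5 had 906, 1044 and 1150 CPM in control and 498, 509.5 and 589 CPM after H/R (-0.96 ± 0.10), Rpl11 283, 289 and 317 and 168, 187 and 181 CPM (-0.73 ± 0.09). Rps27a, made as a fusion with ubiquitin, had 438, 513 and 505 and 313, 261 and 302 CPM (-0.73 ± 0.10).

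Only 2 members passed as higher, and neither is a standard subunit gene. Rps27l (chr9:66946086-66949516, plus strand, mm10), a paralog of Rps27 and a known p53 target, had 172, 154 and 152 CPM in the controls and 195, 198 and 208 CPM after H/R, a log2 fold change of 0.33 ± 0.09 (SE). Its H/R libraries all lay above the controls by a small margin, and the call was lost when control replicate 2 was left out. Rps19bp1 (chr15:80260615-80264315, minus strand) had 11.1, 14.5 and 10.5 CPM and 16.3, 21.3 and 23.7 CPM (0.76 ± 0.21), again with no overlap, and its call was lost without H/R replicate 3. Rps27, the parent of Rps27l, was not analysed here, so the pair could not be compared.

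The 3 standard genes that did not pass had low levels for this gene class, but only Rpl41 and Rpl22 were also imprecise. The SE of Rpl21 was near the median of 0.10 for the standard genes. Rpl26 and Rpl36a, with lower control means of 42.2 and 34.0 CPM, passed as lower (-0.81 and -0.84). Rpl21 had 48.7, 50.3 and 53.3 CPM in the controls and 43.3, 46.0 and 49.3 CPM after H/R (-0.14 ± 0.12), and its groups overlapped; without scaling factors the value became 0.078. Rpl41, the shortest ribosomal protein, had only 18 to 30 counts in control and 48 to 85 in H/R libraries, or 3.61, 3.90 and 2.69 and 4.67, 3.21 and 2.82 CPM (0.07 ± 0.40), and its sign turned under several alternatives. Rpl22 had 3 to 25 and 9 to 26 counts, or 3.22, 1.95 and 0.449 and 1.43, 0.535 and 1.41 CPM (-0.74 ± 0.70). The SEs of Rpl41 and Rpl22, 0.40 and 0.70, were several times those of the other standard genes, so at this depth little can be said of either.

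Rpl7l1, a paralog of Rpl7 that acts in ribosome assembly, passed as lower with the smallest difference, with 137, 119.5 and 129 CPM in control and 101, 101 and 111 CPM after H/R (-0.30 ± 0.10). The call was lost without H/R replicate 1, without H/R replicate 2 and without scaling factors. The row named Rpl24 had 106, 152 and 167 and 104, 115 and 124 CPM (-0.31 ± 0.14); it did not pass, and passed as lower (-0.48) once control replicate 1 was left out.

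**Figure D3:**
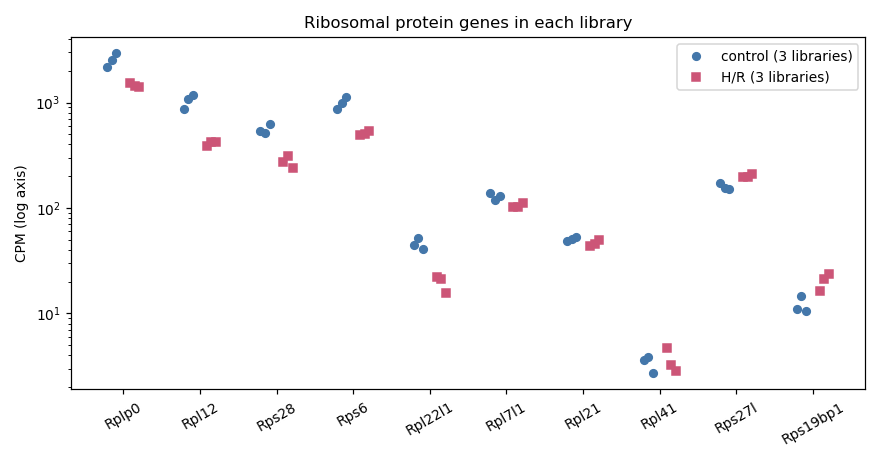
CPM of 10 ribosomal protein genes (log y axis) in the 3 control libraries (circles) and the 3 H/R libraries (squares). Rplp0, Rpl12, Rps28, Rps6, Rpl22l1 and Rpl7l1 have every square below every circle, Rpl21 and Rpl41 overlap, and Rps27l and Rps19bp1 have every square above.

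The other paralogs and extra copies passed as lower. Rpl22l1, which can replace Rpl22 in the ribosome, had 44.5, 51.4 and 40.6 CPM in the controls and 22.3, 21.0 and 15.6 CPM after H/R (-1.21 ± 0.17). Its row held more reads than that of Rpl22, which had only 25, 15 and 3 counts in control. Whether the Rpl22 row captures all reads of that gene was not tested, so use of the paralog is not read from these counts. Rpl36al had 197, 196 and 222 and 114, 115 and 115 CPM (-0.84 ± 0.09), beside 39.3, 27.5 and 35.2 and 18.5, 18.1 and 20.2 CPM (-0.84 ± 0.17) for its X-linked parent Rpl36a. Rpl7, parent of Rpl7l1, had 1064, 1193 and 1344 and 625, 617 and 636 CPM (-0.94 ± 0.09), a more negative value than its paralog. Rps3a2 and Rps3a3, single-exon copies of Rps3a1, had log2 fold changes of -1.26 ± 0.30 and -1.14 ± 0.16 next to -0.92 ± 0.09 for Rps3a1. Reads of near-identical copies may be divided between such genes in counting, so their separate values are uncertain.

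Of the 18 rows with pseudogene names, 10 were tested, 5 passed as lower and none as higher; by edgeR's test the other 5 did not pass. Their median log2 fold change was -0.80. Rpl9-ps6 had 20.1, 23.9 and 66 CPM in control and 14.2, 16.3 and 12.2 CPM after H/R (-1.35 ± 0.35), with control library 3 far above the others. Its value was -0.63 without control replicate 3 and -1.65 without control replicate 1, and its call was lost without H/R replicate 3. Rps26-ps1, Rps10-ps1, Rps18-ps3 and Rpl27-ps3, which did not pass, had values of -0.84 ± 0.32, -0.76 ± 0.33, -0.70 ± 0.36 and -0.66 ± 0.35. Rps2-ps10 had 1 high library in each group, at 8.64, 11.7 and 57.8 CPM and 62.9, 6.06 and 6.41 CPM (-0.03 ± 0.81). Without H/R replicate 1 it passed as lower (-2.05). Rps26-ps1 likewise passed without control replicate 3 (-0.98), with edgeR's exact test (adjusted p = 0.025) and with length and GC offsets (adjusted p = 0.029). Rps10-ps1 passed without control replicate 1 (-0.91), with no filter on low counts (adjusted p = 0.047) and with the offsets (adjusted p = 0.043). These copies share most of their sequence with the functional genes.

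To compare genes with each other, CPM was divided by transcript length in kb. In control cells the 74 standard genes had a median of 613 CPM per kb, with quartiles of 425.7 and 869, and after H/R a median of 361. The highest were Rps24 at 2454 ± 344, Rps28 at 2060 ± 222, Rplp0 at 1867 ± 283, Rps15 at 1818 ± 235 and Rpl10 at 1427 ± 219 CPM per kb (SD, n = 3). Each overlapped the next in this order within 1 SD. Lowest stood Rpl22 at 3.95 ± 2.93, Rpl41 at 7.78 ± 1.44, Rpl23 at 53.0 ± 8.65, Rpl21 at 56.5 ± 2.58, Rpl36a at 70.4 ± 12.4, Rpl26 at 80.3 ± 16.6 and Rps20 at 91.3 ± 5.66 CPM per kb, the only 7 under 100. The annotated transcripts of Rps20, Rps3 and Rpl5 used here have 3706, 1908 and 2045 nt, which lowers their values per length.

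The order of the genes barely changed after H/R: over the 74 genes, Spearman's rho between control and H/R levels per length was 0.98, with each gene's length shared by both. Genes with a higher level per length in control tended to more negative fold changes (rho = -0.38, n = 74 genes); the control libraries enter both quantities. For transcript length (rho = -0.22), GC content (0.22) and the number of pseudogenes named after the gene (-0.15) the relation with the fold change was weak. Genes are not independent replicates, and these are descriptions.

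Ribosomal protein genes differ from the rest of the table in build. Their transcripts had a median length of 709 nt and 5 exons, against 2662 nt and 9 exons over all genes tested. Median GC content was alike, at 51.9% and 50.6%. The 965 tested genes under 1000 nt that are not members had a median log2 fold change of 0.01, and 16.1% of them passed as lower. Of 620 other genes at or above the lower quartile of the standard genes' control CPM, 51.3% passed as lower, with a median of -0.26. They were picked by control level, and the same control libraries enter their fold changes, which favours lower values. The 74 genes lie on 19 chromosomes, with 14 on chromosome 7 and 4 on the X (Rpl10, Rpl36a, Rpl39 and Rps4x). The X-linked genes had log2 fold changes of -1.08 ± 0.11, -0.84 ± 0.17, -0.80 ± 0.11 and -0.74 ± 0.09, within the range of the others.

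The start of transcription was examined because ribosomal protein mRNAs are known to share the TOP tract. RefSeq promoter windows of the GRCm38.p6 build, from 250 bases before to 50 after the start, matched 54 of the 74 standard genes. A C at the annotated start followed by at least 4 further C or T bases was present in 12 of 54 genes (22.2%), against 3.01% of all 27025 genes of that table. With the start allowed to move by up to 5 bases, it was present in 26 of 54 (48.1%) against 21.2%. At the first bases of protein-coding GENCODE transcripts, 21 of 74 standard genes (28.4%) had such a start, against 5.77% of the other tested genes. The letters CTTTC, on either strand and anywhere in the window, occurred in 81.5% of the 54 windows and in 60.6% of all windows. Annotated starts can be off by several bases, so a missing tract says only that these letters are not at this position.

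The windows printed here run from 15 bases before to 15 bases from the annotated start, 5′ to 3′ on the gene's strand. Capitals mark the longest run of C and T that begins with a C within 5 bases of the start and holds at least 5 bases. They are shown for some genes with large falls (Rpl12, Rpl13a, Rps6, Rps12 and the paralog Rpl22l1) and some that fell least or not at all (Rpl7l1, Rps27l and Rps19bp1). Among windows not printed, those of Rpl10 (-1.08), Rps28 (-1.04) and Rpl41 (0.07) have no such run, and those of Rpl34 (-1.14) do.
Rpl12 (chr2:32961697-32961726, plus strand): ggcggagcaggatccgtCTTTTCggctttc
Rpl13a (chr7:45128731-45128760, minus strand): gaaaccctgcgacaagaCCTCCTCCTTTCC
Rps6 (chr4:86857353-86857382, minus strand): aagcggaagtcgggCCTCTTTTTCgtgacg
Rps12 (chr10:23787195-23787224, minus strand): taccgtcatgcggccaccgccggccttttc
Rpl22l1 (chr3:28805493-28805522, plus strand): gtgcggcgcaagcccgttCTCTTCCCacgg
Rpl7l1 (chr17:46782642-46782671, minus strand): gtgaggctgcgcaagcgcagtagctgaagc
Rps27l (chr9:66946071-66946100, plus strand): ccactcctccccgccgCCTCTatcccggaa
Rps19bp1 (chr15:80264292-80264321, minus strand): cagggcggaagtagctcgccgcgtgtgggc

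Of the genes printed, Rpl13a has the longest run, of 13 bases, followed by Rps6 with 10, and Rps6 alone meets the stricter rule at the annotated start. The printed window of Rps27l has a run of 5 bases, while the window at its other annotated start, not printed, has none. Rps19bp1, Rpl7l1 and Rps12 have none within the 5 bases. The presence of a tract separated the fold changes little: the 12 standard genes with one at the RefSeq start had a median of -0.89 and the 42 without one -0.82. By the GENCODE starts the medians were -0.92 and -0.83.

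Other genes of translation were taken from lists of known function and are no members, though the lists were drawn up with earlier results of these data known. Levels are means ± SD over 3 libraries, and adjusted p-values are those of edgeR's quasi-likelihood test. Of 14 measured mRNAs outside the set that are known to carry a TOP tract, 12 fell (19.0% of all genes did) and 2 did not pass. The median log2 fold change of the 14 was -0.84, next to 0.01 over all genes. Of the 620 abundant other genes described above, some of them on this list, 51.3% passed as lower, with a median of -0.26. Those genes were picked by control level, which also enters their fold changes. Eef2, the elongation factor that moves the ribosome along, fell from 7433 ± 1114 to 2890 ± 157 CPM (log2 fold change -1.36 ± 0.10, SE, adjusted p = 7.1e-07). Eef1a1, which delivers aminoacyl-tRNA, fell from 8378 ± 755 to 4443 ± 71.4 CPM (log2 fold change -0.92 ± 0.08, SE, adjusted p = 2.1e-06). Eef1g fell from 915 ± 126 to 428 ± 13.2 CPM (log2 fold change -1.098 ± 0.10, SE, adjusted p = 3.2e-06). Eif3l and Nap1l1 had log2 fold changes of -0.10 ± 0.09 and -0.19 ± 0.09 and did not pass.

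Ribosomal proteins and a ribosome-bound scaffold are also encoded under other names. Gnb2l1, which encodes the small subunit scaffold Rack1, fell from 1062 ± 163 to 509.8 ± 36.7 CPM (log2 fold change -1.06 ± 0.11, SE, adjusted p = 9.5e-06). Fau, the precursor of a small subunit protein, fell from 322 ± 25.02 to 213 ± 13.7 CPM (log2 fold change -0.59 ± 0.09, SE, adjusted p = 2.2e-04).

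Of the regulators of TOP mRNAs, with 14 rows for 13 symbols, 4 fell (28.6%, against 19.0% of all genes), 1 rose (7.14%, against 18.8%) and 9 did not pass, with a median of -0.25. Eif4ebp2, a repressor of the cap-binding factor, rose from 81.6 ± 6.43 to 139 ± 7.72 CPM (log2 fold change 0.77 ± 0.10, SE, adjusted p = 6.2e-05), whereas its relative Eif4ebp1 fell from 148 ± 3.92 to 88.8 ± 8.29 CPM (log2 fold change -0.73 ± 0.10, SE, adjusted p = 8.3e-05). Tia1, a protein that binds TOP mRNAs in stress granules, fell from 142 ± 10.7 to 106 ± 3.62 CPM (log2 fold change -0.43 ± 0.10, SE, adjusted p = 0.0031). Larp1 and Mtor had log2 fold changes of -0.04 ± 0.08 and 0.18 ± 0.11 and did not pass.

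Of 9 tested proteins that escort single ribosomal proteins or finish subunits, 3 fell (33.3%, against 19.0% of all genes), 1 rose (11.1%, against 18.8%) and 5 did not pass. Ltv1, needed to build the head of the small subunit, fell from 79.8 ± 3.55 to 46.0 ± 5.34 CPM (log2 fold change -0.80 ± 0.12, SE, adjusted p = 1.5e-04). Bccip, which binds a large subunit protein, rose from 28.6 ± 5.79 to 42.1 ± 1.44 CPM (log2 fold change 0.56 ± 0.16, SE, adjusted p = 0.013).

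Mitochondrial ribosomal proteins serve the separate ribosome of that organelle. Of 72 tested, 12 fell (16.7%) and 9 rose (12.5%), both below the 19.0% and 18.8% of all genes. The other 51 did not pass, and the median log2 fold change was -0.0046. Mrpl24 fell from 43.2 ± 4.73 to 21.5 ± 0.927 CPM (log2 fold change -1.01 ± 0.14, SE, adjusted p = 1.0e-04), and Mrpl18 rose from 32.8 ± 4.41 to 57.1 ± 3.605 CPM (log2 fold change 0.80 ± 0.13, SE, adjusted p = 4.1e-04).

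**Figure D4:**
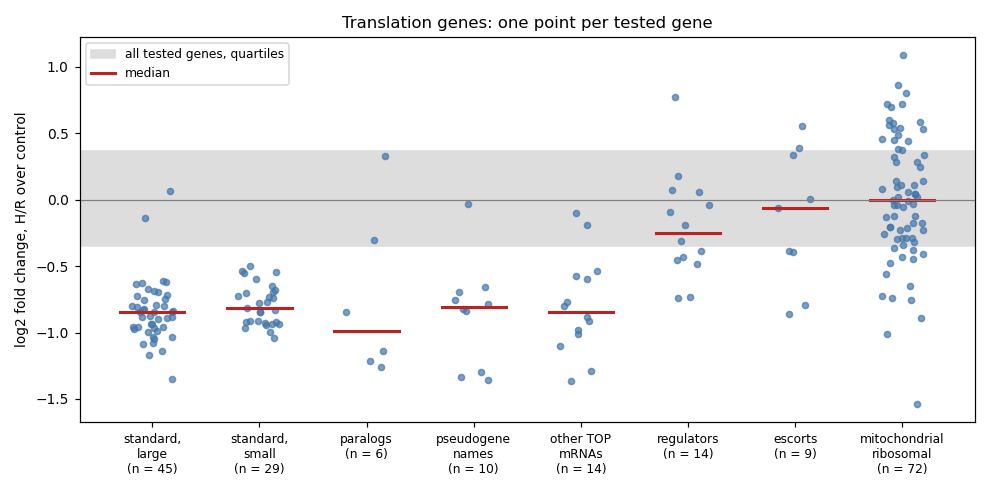
Log2 fold change (y axis, H/R over control) of every tested gene in 8 groups, 1 point per gene, with the group median as a red line and the quartiles of all tested genes as a grey band. Standard subunit genes and other TOP mRNAs have medians between -0.85 and -0.82, mitochondrial ribosomal proteins a median of -0.0046.

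The lncRNA table counts non-coding transcripts that overlap exons of the ribosomal protein genes, such as isoforms that retain introns. In these libraries 35 of them at standard genes had enough counts for edgeR's test, and 0 passed, where 4.93% of all lncRNA transcripts did. At an unadjusted p under 0.05, 3 of the 35 were higher and 2 lower, where 613 (9.04%) and 541 (7.98%) of all 6779 tested lncRNA transcripts were. The median log2 fold change was 0.21. The 3 higher ones lie at Rpl10a, Rps19 and Rps3, the 2 lower ones at Rpl10 (-0.78) and Rpl7a (-2.14). That of Rpl10a had 75, 74 and 78 counts in control and 219, 327 and 237 in H/R libraries (0.79 ± 0.25, SE).

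Set against the gene counts in the same library, which removes the scaling between libraries, the summed non-coding transcripts of 46 standard genes amounted to 0.646, 0.570 and 0.509% in the controls and 0.905, 1.11 and 0.961% after H/R. These sums were higher in every H/R library than in any control library. The median percentage per gene was 0.520, 0.367 and 0.365 in control and 0.513, 0.652 and 0.768 after H/R, where the groups overlap. For 5592 other genes the same percentage was 3.21, 3.09 and 2.78 in control and 2.84, 2.84 and 2.92 after H/R, with overlap. The gene counts in this percentage are those of the contrast that chose the members, so it rises where they are lower even with unchanged non-coding counts, and nothing is read from its difference between the members and other genes. The counting tool of the lncRNA table is not given in the sources used here, so reads shared with the coding isoforms cannot be told apart. No circRNA of 2805 was assigned to a member gene.

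**Figure D5:**
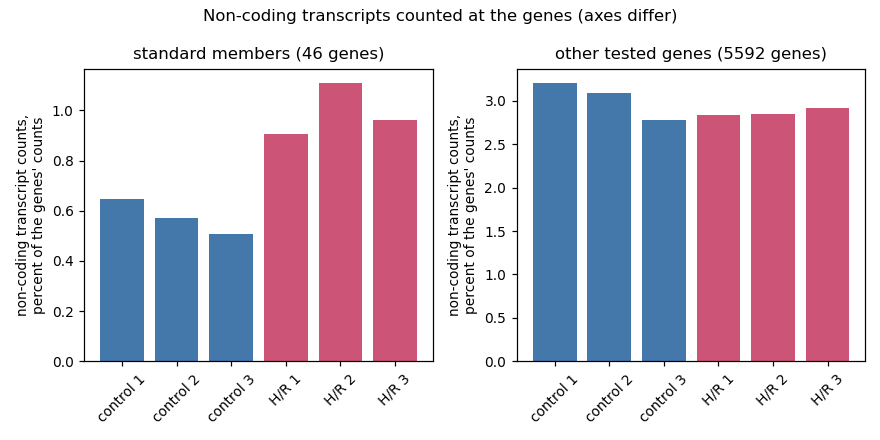
Summed counts of exon-overlapping non-coding transcripts as a percent of the same genes' counts (y axes from 0, with different ranges) in control (blue) and H/R (red) libraries. Left, 46 standard ribosomal protein genes, 0.509 to 0.646% in control and 0.905 to 1.11% in H/R; right, 5592 other genes, 2.78 to 3.21% and 2.84 to 2.92%.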

How the data were processed

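Libraries were made from rRNA-depleted total RNA, 3 from control and 3 from H/R samples of C17.2. Per the labels, the authors used cutadapt 1.9.3 for trimming, HISAT2 2.0.4 with mm10 for alignment and HTSeq 0.9.1 for counting, and the deposited gene, lncRNA and circRNA tables hold raw counts. STAR 2.5.1b and edgeR 3.16.5 are also listed. The counting tool of the lncRNA table, strand setting and annotation release are not given in the sources used here. The deposited tables also hold 18 columns of normalized values, and the authors' own fold changes and p-values, none of which were used.

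Counts were analysed per table with edgeR 4.0.16 in R 4.3.3: filterByExpr, TMM scaling, a two-sided quasi-likelihood comparison of the groups without covariates, and Benjamini-Hochberg adjustment over all 11104 genes or 6779 lncRNA transcripts, with a threshold of 0.05. The SE of a log2 fold change was the coefficient divided by the square root of F. The procedure was tested on simulated data. P-values measure the spread between these samples, which may be technical. Intervals were not formed from counts, since reads are not independent molecules.

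Coordinates, lengths and exons are from GENCODE vM21 (mm10), using the shortest CCDS transcript of a gene. Promoter sequences are from RefSeq (GRCm38.p6). Of 100 member identifiers, 99 were found in vM21. The members and lists were chosen with earlier results of these data known. Genes were named by rule: members not lower, the 5 most negative per subunit at 5 CPM or more, the 5 highest per length, paralogs with parents, members with a known role, and for other lists up to 3 per direction by adjusted p. Rps29, the low end of the levels per length, and the non-passing genes of the translation lists were named after their values were seen. Alternatives were DESeq2 1.42.0, the exact test, other scaling and filters, a replicate block, each library left out, length and GC offsets, thinning and the study's thresholds. Added after seeing the data were a list of standard genes only and GENCODE starts. Some results of the marker and translation lists are not reported here.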

Additional observations from a re-analysis of the deposited data

How the results depend on the processing

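Counts of members lower after H/R were 78 to 83 of the 92 to 100 tested under the exact test, DESeq2, RLE scaling, TMM from non-members, no scaling factors, no filter, 1 CPM in 3 libraries, length and GC offsets, thinning and each library left out (78 to 82; large subunit 46 to 49, small 32 to 33). Members higher numbered 1 to 2 with a library left out (1 without control replicate 2 or H/R replicate 3), and so did those with small subunit names. At the study's thresholds, applied to the same fit, 15 members were lower (12 large, 3 small) and 0 higher, where edgeR's adjusted threshold gave 81 and 2. Without Rps19bp1 and the paralogs, or with standard subunits only, 0 were higher. Without scaling factors the medians were -0.62 for the members, -0.63 for the large and -0.57 for the small subunit, while the median of all genes moved to 0.22. Medians with a library left out ran from -0.90 to -0.76. The members' share in control was 4.16% once the 10 most abundant other genes were left out of the totals. The change after H/R in the log2 difference of small against large subunit was 0.07 from summed counts and 0.044 from mean log2 CPM. A pyrimidine start was found in 48.1% of the 54 standard genes with a RefSeq window when the start could move. For single genes 600 of 623 repeats kept direction and side of the threshold. Direction turned for Rpl21 (0.078) and Rps2-ps10 (0.19) without scaling factors, for Rpl41 with length and GC offsets (-0.053) and after thinning (-0.077). With a library left out Rpl41 ran from -0.17 to 0.21 and Rps2-ps10 from -2.05 to 1.31. The cause was not tested. Same-numbered libraries of the groups share only a number (correlations of their deviations 0.039, 0.004 and 0.022), and with replicate number as a block, 80 members were lower and 2 higher.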

Other observations

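Transcripts of ribosomal protein pseudogenes also appear in the lncRNA table. Of 98 listed, 34 were tested and 1 passed edgeR's quasi-likelihood test (4.93% of all lncRNA transcripts did): that of Rpl10-ps6, with 753, 592 and 596 counts in control and 664, 355 and 656 in H/R libraries, a log2 fold change of -1.22 ± 0.21 (SE, adjusted p = 0.0018). At an unadjusted p under 0.05, 8 of the 34 were lower and 1 higher, where 541 and 613 of all 6779 tested lncRNA transcripts were, and the median log2 fold change was -0.48. The higher one, Rps6-ps3, was nearly absent from control, with 3, 0 and 0 counts, and had 26, 17 and 19 counts after H/R. These rows share sequence with the functional genes.

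A row spelled RPL24 in capitals, outside the naming rule, holds the identifier that GENCODE vM21 gives to Rpl24. It had 38, 22 and 6 counts in control and 25, 60 and 30 in H/R libraries, with a log2 fold change of -0.38 ± 0.60 (SE), and did not pass.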
